A study of Saccharomyces cerevisiae with 16 samples.

Results

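The ADE genes of Saccharomyces cerevisiae, budding yeast, encode the enzymes that build adenine nucleotides from simple precursors. The 10 genes described here were chosen by their systematic IDs, out of 7126 genes listed: ADE4 (YMR300C), ADE5,7 (YGL234W), ADE8 (YDR408C), ADE6 (YGR061C), ADE2 (YOR128C), ADE1 (YAR015W), ADE13 (YLR359W), ADE16 (YLR028C), ADE17 (YMR120C) and ADE12 (YNL220W). They were picked because ADE17 was among the genes with the highest values after rancRNA_18, so their differences between rancRNA_18 and the other electroporations are given as a description, without a test.

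Poly(A) RNA was sequenced from spheroplasts, which are yeast cells without their wall, of a single strain, trm10∆. All 6 groups carry this deletion. The cells were electroporated with no RNA, with rancRNA_18 or with rancRNA_18-M2, and from each condition both total mRNA and mRNA from polysomes were sequenced. rancRNA_18 is known as a short ribosome-associated RNA cut from the TRM10 mRNA, and rancRNA_18-M2 is a version of it whose change is not spelled out in the labels. There were 3 libraries each of total and of polysomal mRNA with no RNA, the same number with rancRNA_18-M2, and 2 of total mRNA with rancRNA_18. The pair of files for polysomal mRNA with rancRNA_18 agreed exactly for each of the 7126 genes, so it was treated as 1 library (n = 1) and the analysis has 15 libraries that differ. Every group is the same strain, and all cells had been through spheroplasting and electroporation, so no library shows intact or untouched cells.

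A library held between 16691019 and 31148081 reads in genes. TRM10, the deleted gene, had 0 to 5 reads in a library and 19 reads over all 15. Each of the 10 ADE genes passed the filter on low counts, with 1409 to 14176 reads in a library, so counting error was small beside the spread between libraries. Levels are CPM, read counts scaled to library size by the TMM method, and ran from 88.2 to 586 CPM over the 10 genes.

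In yeast the pathway starts from phosphoribosyl pyrophosphate (PRPP) and adds the atoms of the purine ring step by step until it reaches IMP. From IMP a short branch leads to AMP and another to GMP. The genes are known to be switched on together by the transcription factors Bas1 and Pho2 when adenine is short and a late intermediate of the pathway builds up. The same intermediate is a by-product of histidine synthesis, which joins both pathways.

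The letters TGACTC are shared by the sites that Bas1 and Gcn4, the activator of amino acid genes, are known to bind. They were searched on both strands (GAGTCA is the same site on the other strand) in a window of 300 bases, from 250 before to 50 after the coding start, in the RefSeq R64 genome. Of the 10 ADE windows, 7 held at least 1 match, against 479 of all 6007 windows of the same length (8.0%). A total of 4 ADE windows held 2 matches, against 31 of all windows with 2 or more (0.5%). The matches are printed to show where they lie. ADE17 held 1 match and its isozyme gene ADE16 held 0, and these windows were not compared in any other way. Whether the matches bear on the mRNA levels was not tested. Each match is shown in the direction of its gene, in capitals.
ADE5,7, chrVII:56253-56282, plus strand: ttttttttcagtTGACTCgccccgtcggta
ADE5,7, chrVII:56286-56315, plus strand: acaagtgccgacTGACTCgtgtcctggtaa
ADE8, chrIV:1289009-1289052, minus strand: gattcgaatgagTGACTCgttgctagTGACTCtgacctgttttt
ADE2, chrXV:566370-566399, minus strand: tatgctgacaaaTGACTCttgttgcatggc
ADE2, chrXV:566327-566356, minus strand: atactaagtgatTGACTCttgctgaccttt
ADE1, chrI:169137-169175, plus strand: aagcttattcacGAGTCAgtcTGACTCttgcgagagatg
ADE13, chrXII:844054-844083, plus strand: cctccgcgagcaGAGTCAaacttcaaacaa
ADE17, chrXIII:509440-509469, minus strand: ccagaaatgaatTGACTCctctcataactt
ADE12, chrXIV:234179-234208, plus strand: atccttttcattGAGTCAcagattaacaaa
The first base of the ADE17 match lies 177 bases before the coding start, and the matches in the other 6 genes begin 153 to 226 bases before it. The windows of ADE4, ADE6 and ADE16 held no match, which says only that these letters are not in those windows.

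ADE16 and ADE17 encode isozymes that carry out the last steps to IMP, so reads of one could in principle be given to the other. Their coding sequences, of 1776 and 1779 bases, were identical at 1329 of 1779 aligned positions (74.7%), and the longest identical run was 19 bases. The first 60 coding bases are printed, with the 16 bases that differ in capitals, to show how closely the differences are spaced.
ADE16, chrXII:201256-201315, minus strand: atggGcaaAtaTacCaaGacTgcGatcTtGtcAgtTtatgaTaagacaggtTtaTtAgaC
ADE17, chrXIII:509221-509280, minus strand: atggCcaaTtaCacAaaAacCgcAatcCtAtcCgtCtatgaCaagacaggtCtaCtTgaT
None of the 10 ADE genes overlaps another gene in the R64 annotation, so 0 of them share reads with a neighbour there.

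Without added RNA the ADE genes differed widely in their level per length. In total mRNA of the no RNA group, levels are given in CPM per kilobase of coding sequence, as mean ± SD over 3 libraries. ADE1, the enzyme that attaches aspartate to the imidazole intermediate, was at 336 ± 42.8. ADE8, the first of the formyl-transfer enzymes, was at 243 ± 45.9. ADE16 was at 197 ± 39.7 and ADE17 at 158 ± 24.1. Next came ADE12, the first enzyme of the branch to AMP, at 153 ± 17.0, ADE2, which carboxylates the imidazole intermediate, at 141 ± 26.8, and ADE13, adenylosuccinate lyase, at 129 ± 12.6. ADE4, which commits PRPP to the pathway, was at 89.4 ± 14.7, and ADE5,7, which encodes a protein for 2 separate early steps, was at 84.8 ± 15.7. ADE6, the longest of these genes and the enzyme that acts after ADE8, was lowest at 28.5 ± 5.29. The 3 libraries of ADE1 all lay above those of ADE8, and the 3 of ADE6 all lay below those of ADE5,7. From ADE8 down to ADE13 each gene overlapped its neighbour in this order, ADE13 and ADE4 did not overlap, and ADE4 and ADE5,7 did.

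**Figure D1:**
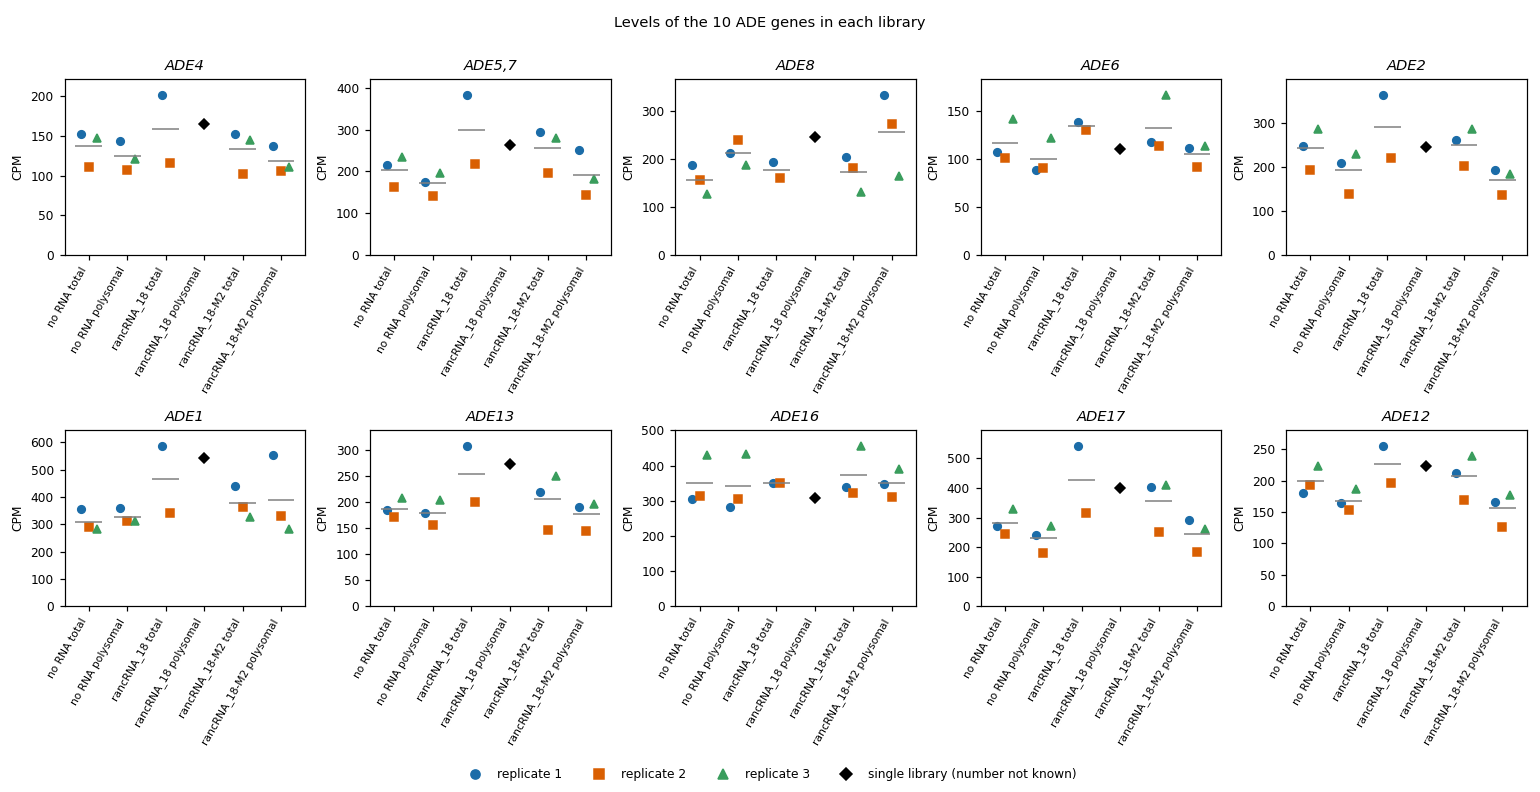
CPM (y axis, linear, from 0) of each ADE gene in each of the 15 libraries, by group (x axis), with the replicate number as the symbol and the group mean as a grey line. ADE17 reaches 541 CPM in replicate 1 of rancRNA_18 total mRNA, above the 3 no RNA total libraries at 245 to 329, while ADE16 in both rancRNA_18 total libraries stays inside its no RNA range.

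The comparison of rancRNA_18 with no RNA asks how the ADE mRNAs stood when cells had received the RNA. In total mRNA with rancRNA_18, ADE17 was at 541 CPM in replicate 1 and 316 in replicate 2, against 271, 245 and 329 in replicates 1, 2 and 3 with no RNA. The first of these libraries lay above all 3 without RNA and the second lay among them. The fitted difference was 0.61 on the log2 scale (SE 0.30), a value that the choice of ADE17 rests on. Without replicate 1 of rancRNA_18 total mRNA the log2 difference of ADE17 was 0.16. With the replicate number as a block, a term that compares libraries of the same number with each other, it was 0.67 (SE 0.13).

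ADE5,7 showed the same picture at its own level. Its total mRNA stood at 384 and 218 CPM with rancRNA_18 and at 215, 162 and 235 CPM with no RNA. Only the first rancRNA_18 library lay above the no RNA range, and the log2 difference was 0.56 (SE 0.30). ADE1 was at 586 and 343 CPM with rancRNA_18 against 355, 292 and 282 CPM with no RNA, a log2 difference of 0.59 (SE 0.29). Again only replicate 1 of rancRNA_18 was outside the no RNA range. ADE13, which acts both before IMP and in the branch to AMP, was at 307 and 199.5 CPM with rancRNA_18 and at 183, 171 and 207 CPM with no RNA, a log2 difference of 0.44 (SE 0.26).

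The other 6 ADE genes lay closer to their no RNA levels in total mRNA. Log2 differences between rancRNA_18 and no RNA were 0.27 for ADE2, 0.21 for both ADE4 and ADE6, 0.18 for ADE12, 0.17 for ADE8 and 0.00 for ADE16, with SEs of 0.22 to 0.29. All 10 ADE genes were higher with rancRNA_18 in both pairs of libraries with the same number, and no ADE gene had groups that did not overlap. The share of all genes that did so is not given, so these counts are not read as particular to the ADE genes. In the pair of replicate 1 the log2 ratio ran from 0.05 for ADE8 to 0.999 for ADE17, and in the pair of replicate 2 it was 0.37 for ADE17, 0.42 for ADE5,7, 0.16 for ADE16 and 0.03 for ADE8. The median log2 difference of the 10 genes was 0.24, and 0.06 without replicate 1 of rancRNA_18 total mRNA, beside -0.003 over all 6106 genes tested. With the replicate block it was 0.35.

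In polysomal mRNA the single rancRNA_18 library held ADE17 at 401 CPM. The no RNA polysomal libraries were at 240.3, 181 and 272 CPM in replicates 1, 2 and 3, all below it. The log2 difference was 0.79 (SE 0.37, borrowed from the replicated groups), and 0.65 or 1.19 with the block, depending on whether the library was taken as replicate 1 or 2. ADE1 stood at 543 CPM in that library against 360.4, 311 and 313 CPM with no RNA, a log2 difference of 0.73 (SE 0.36). ADE5,7 stood at 263 CPM against 176, 141 and 197 CPM, and ADE13 at 273 CPM against 178, 156 and 203 CPM. For 8 of the 10 ADE genes this library lay above all 3 no RNA polysomal libraries, the exceptions being ADE6 and ADE16, which lay inside their range. That count rests on 1 library and has no share of all genes beside it, so it is not read as particular to the ADE genes. Log2 differences were 0.62 for ADE5,7, 0.61 for ADE13, 0.42 for ADE4 and ADE12, 0.35 for ADE2, 0.20 for ADE8, 0.15 for ADE6 and -0.14 for ADE16. The median log2 difference was 0.42, beside -0.034 over all genes, and 0.32 or 0.73 with the block and the library as replicate 1 or 2.

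The rancRNA_18 libraries were also set against rancRNA_18-M2, and they are the same ones as in the comparison with no RNA. In total mRNA the median log2 difference of the 10 ADE genes was 0.22, and it was -0.13 without replicate 1 of rancRNA_18 total mRNA. Taken by replicate number, 8 of the 10 genes were higher with rancRNA_18 in both pairs and 1 was lower in both. In polysomal mRNA the single rancRNA_18 library lay above the rancRNA_18-M2 libraries for 6 of the 10 genes, inside their range for ADE8, ADE6 and ADE1 and below it for ADE16. Neither count has a share of all genes beside it. The median log2 difference there was 0.49, and 0.25 or 0.75 with the block and the library as replicate 1 or 2. The log2 difference of ADE17 from rancRNA_18-M2 was 0.27 (SE 0.30) in total and 0.71 (SE 0.37) in polysomal mRNA. In total mRNA it was 0.30 for ADE1 and ADE13, 0.26 for ADE4, 0.23 for ADE5,7, 0.22 for ADE2, 0.13 for ADE12, 0.03 for ADE8, 0.02 for ADE6 and -0.09 for ADE16. In polysomal mRNA it was 0.63 for ADE13, 0.52 for ADE2 and ADE12, 0.49 for ADE4, 0.48 for ADE1, 0.45 for ADE5,7, 0.07 for ADE6, -0.07 for ADE8 and -0.18 for ADE16.

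**Figure D2:**
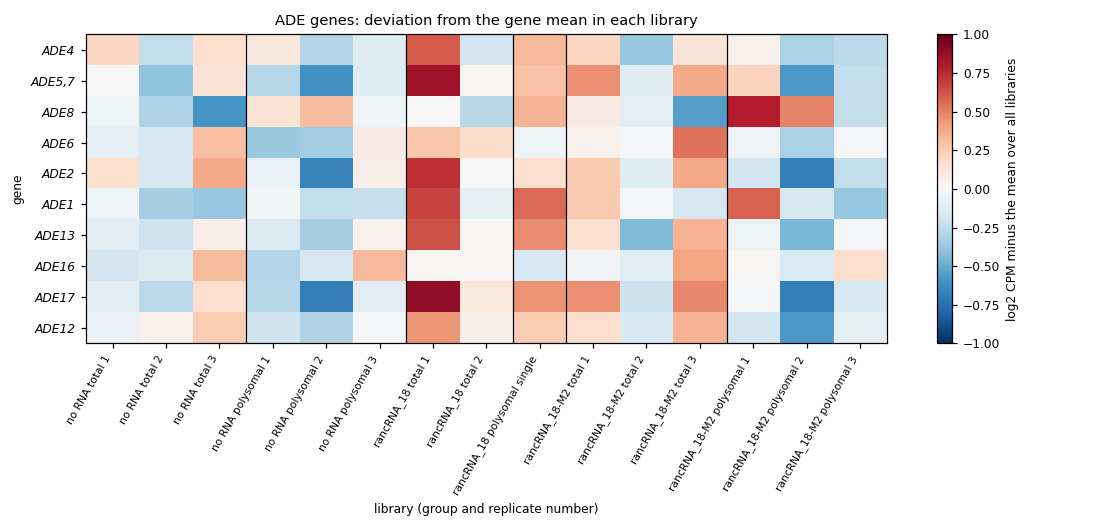
Colour gives the log2 CPM of each ADE gene (rows) in each of the 15 libraries (columns, by group and replicate number) minus the gene's mean over the libraries. Replicate 1 of rancRNA_18 total mRNA has the highest mean over the 10 genes (0.51), and ADE8 is highest in replicate 1 of rancRNA_18-M2 polysomal mRNA.

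Whether rancRNA_18-M2 itself moved the ADE mRNAs was tested against no RNA with edgeR's quasi-likelihood test, with p adjusted over all genes by the Benjamini-Hochberg method and adjusted p under 0.05 as the threshold. In total mRNA no ADE gene passed, and no gene of the 6106 tested did (0%), with or without the replicate block. Before adjustment, p was under 0.05 for 36 genes and 0 ADE genes, and for 443 genes and 3 ADE genes with the block. DESeq2 called no ADE gene. ADE17 had 403, 252 and 409 CPM in replicates 1, 2 and 3 of rancRNA_18-M2 total mRNA, overlapping its no RNA values, for a log2 difference of 0.33 (SE 0.27) and 0.30 (SE 0.12, adjusted p = 0.639 by edgeR) with the block. ADE5,7, at 295, 197 and 279.5 CPM, differed by 0.33 (SE 0.27). ADE1, at 440.3, 365 and 327 CPM, differed by 0.29 (SE 0.27). Each of these 3 genes was higher with rancRNA_18-M2 in all 3 pairs of the same number, as were 7 of the 10 ADE genes in total. The share of all genes higher in every pair is not given, so this count is not read as particular to the ADE genes. The groups overlapped for every ADE gene. Log2 differences of the others were 0.19 for ADE6, 0.14 for ADE8, 0.13 for ADE13, 0.09 for ADE16, 0.05 for ADE12, 0.04 for ADE2 and -0.04 for ADE4. The median log2 difference was 0.14 with 9 of 10 above 0, beside -0.004 over all genes.

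The same test was made in polysomal mRNA. No ADE gene and no gene at all passed (0%) by edgeR with or without the block, 38 genes and 0 ADE genes had an unadjusted p under 0.05 without it and 417 genes and 0 ADE genes with it, and DESeq2 called no ADE gene. Log2 differences ran from -0.17 (SE 0.26) for ADE2 to 0.27 (SE 0.26) for ADE8. Between them lay ADE1 at 0.24, ADE5,7 at 0.17, ADE17 and ADE6 at 0.08, ADE16 at 0.04, ADE13 at -0.02, ADE4 at -0.07 and ADE12 at -0.10. The polysomal level of ADE17 was 291, 183 and 260.0 CPM with rancRNA_18-M2. The first of these lay above its no RNA polysomal values and the others lay among them. With standard errors of this size, changes the size of these were not detectable.

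Polysomal mRNA was then compared with total mRNA within each condition. An mRNA that carries many ribosomes is enriched among polysomes, and one that carries few is depleted. Without the block, in which replicate numbers are ignored, no ADE gene passed in any condition, at backgrounds of 0.197% of genes called with no RNA, 0% with rancRNA_18 and 0.377% with rancRNA_18-M2. An unadjusted p under 0.05 was seen for 1 ADE gene with rancRNA_18-M2, beside 1055 of all 6106 genes. It was seen for 0 ADE genes with no RNA, beside 648 genes, and for 0 with rancRNA_18, beside 503. Counts of 0 or 1 ADE gene are too small to show whether the ADE genes differ from all genes. DESeq2 called no ADE gene in any condition. Libraries of the same number moved together, and with the number as a block 21.8% of genes passed with no RNA and 31.8% with rancRNA_18-M2. The ADE calls below rest on that block.

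ADE8 was higher in polysomes than in total mRNA. With no RNA it stood at 212, 239 and 187 CPM in polysomal replicates 1, 2 and 3 against 186, 156 and 127 CPM in total mRNA. These groups did not overlap. With the block ADE8 was higher by 0.46 on the log2 scale (SE 0.12, adjusted p = 0.0116 by edgeR) with no RNA, and by 0.54 (SE 0.12, adjusted p = 0.00242) with rancRNA_18-M2, where polysomal values of 333, 272 and 164 CPM stood against 205, 181 and 131 CPM. Scaled by plain library totals with the block, the log2 difference of ADE8 was 0.26 with no RNA (adjusted p = 0.0505), short of the threshold, and 0.32 (adjusted p = 0.0150) with rancRNA_18-M2. ADE8 was higher in polysomes in every pair of the same number.

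ADE2 was lower in polysomes than in total mRNA. Its total mRNA with rancRNA_18-M2 was at 262, 202 and 285 CPM in replicates 1, 2 and 3, and its polysomal mRNA at 192, 136 and 184 CPM, so the groups did not overlap. The log2 difference with the block was -0.55 (SE 0.10, adjusted p = 0.000493 by edgeR). With no RNA the total values of 247, 194 and 285 CPM stood against 209, 138 and 229 CPM in polysomes, which overlapped, and the log2 difference with the block was -0.35 (SE 0.10, adjusted p = 0.0201). ADE2 and ADE8 were the 2 ADE genes called with no RNA, 1 in each direction. The others were at -0.30 (ADE17), -0.26 (ADE12), -0.25 (ADE5,7), -0.22 (ADE6), -0.14 (ADE4), -0.07 (ADE13), -0.04 (ADE16) and 0.09 (ADE1) on the log2 scale with the block. Leaving out 1 library at a time, ADE2 and ADE8 each passed in 12 of 15 fits with no RNA. The count of ADE genes ran from 0 without replicate 2 of no RNA total mRNA to 4 without replicate 1. Over the same fits 750 to 1505 of all genes passed. Most of the 15 fits left out a library of another condition and kept every library of this comparison.

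With rancRNA_18-M2, 6 ADE genes passed with the block: ADE8 was higher, and ADE2 and 4 others were lower. Over all genes 15.0% were called lower in that comparison, and 9.48% with no RNA. ADE17 fell by 0.53 on the log2 scale in polysomes (SE 0.12, adjusted p = 0.00210 by edgeR), from 403, 252 and 409 CPM to 291, 183 and 260.0 CPM. ADE17 was lower in polysomes in all 3 pairs, although the groups overlapped. The log2 difference was -0.43 (SE 0.12, adjusted p = 0.00997) for ADE5,7, -0.40 (SE 0.11, adjusted p = 0.00683) for ADE12 and -0.31 (SE 0.10, adjusted p = 0.0221) for ADE6. ADE16, ADE1, ADE4 and ADE13 did not pass, with log2 differences of -0.07, 0.00, -0.16 and -0.20. Without replicate 2 of rancRNA_18-M2 polysomal mRNA 4 ADE genes passed, beside 1332 of all genes. ADE17, ADE2 and ADE8 passed in all 15 fits that left out a library. Most of these fits left out a library of another condition, so they are a weak check of this comparison. The median log2 difference of the 10 ADE genes was -0.27 without the block, beside -0.006 over all genes.

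**Figure D3:**
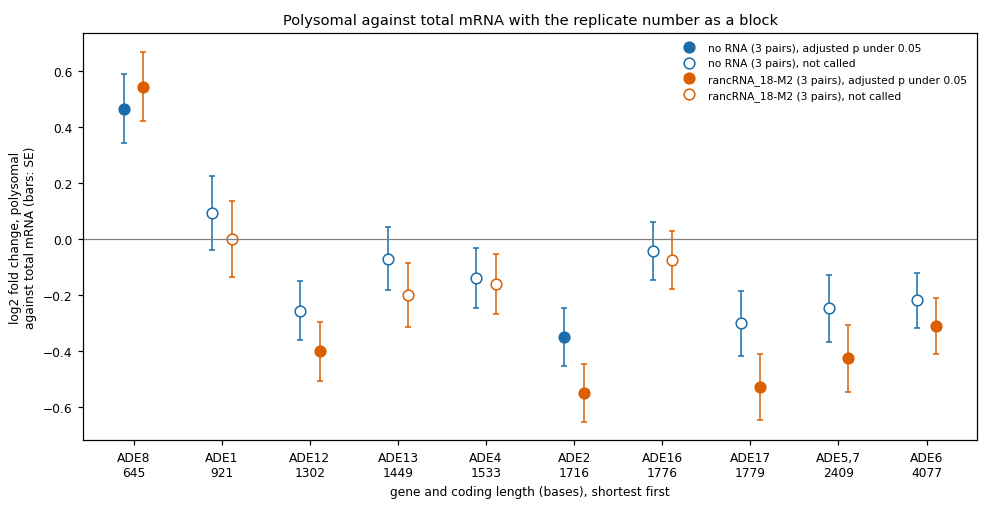
Log2 difference between polysomal and total mRNA (y axis, with SE bars, replicate number as a block) for each ADE gene in order of coding length (x axis, bases), with no RNA in blue and with rancRNA_18-M2 in orange, 3 pairs of libraries each. Filled points passed adjusted p under 0.05. ADE8, the shortest at 645 bases, is the one called above 0, and ADE2 is called below 0 in both conditions.

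A pair of features of the libraries moved with these differences. Longer genes tended to be lower in polysomes. Over 5744 genes the Spearman correlation of the log2 difference with coding length was -0.36 with no RNA and -0.43 with rancRNA_18-M2 (both across genes, which are not independent). The fall was not steady. With rancRNA_18-M2 and the block the fitted trend was 0.26 at 645 bases, -0.13 at 1716 and -0.07 at 4077. ADE8, with 645 coding bases, is the shortest ADE gene, and its differences beyond the length trend, with the block, were 0.27 with no RNA and 0.29 with rancRNA_18-M2. Beyond the same trend ADE2 was at -0.24 and -0.42, and with rancRNA_18-M2 ADE17 was at -0.39, ADE5,7 at -0.32, ADE12 at -0.29 and ADE6 at -0.24. Second, plain library totals in place of TMM shifted the median of all genes by -0.20 with either condition, so all directions here are relative to the bulk of genes. With totals and the block the calls over all genes moved from 753 higher and 579 lower to 333 and 1708 with no RNA, and from 1023 and 916 to 536 and 2053 with rancRNA_18-M2. The ADE calls then became 0 higher and 7 lower with no RNA and 1 higher and 8 lower with rancRNA_18-M2.

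With rancRNA_18 the comparison of polysomal with total mRNA has a single polysomal library, which is assumed to vary as the other groups do, and its libraries are among those on which the ADE genes were chosen. Its counts of calls are therefore given for completeness and support nothing. With the block they were 0 ADE genes with that library as replicate 1 (12.3% of all genes) and 1, ADE8 at a log2 difference of 0.56, with it as replicate 2 (29.8% of all genes). ADE8 was at 244 CPM in the polysomal library and at 193 and 159 CPM in total mRNA. ADE16 and ADE6 were lower in the polysomal library than in both total ones, and the remaining 7 ADE genes lay between them. The median log2 difference of the ADE genes was -0.06, beside -0.06 over all genes, and -0.18 or 0.19 with the block, so its sign depends on the replicate number given to the library. Without the block the log2 difference was 0.47 for ADE8, 0.23 for ADE1, 0.11 for ADE13, 0.06 for ADE4, -0.01 for ADE12, -0.10 for ADE17, -0.19 for ADE5,7 and ADE16, -0.25 for ADE2 and -0.28 for ADE6. With the block ADE17 was at -0.32 or 0.22, ADE5,7 at -0.44 or 0.15 and ADE2 at -0.46 or 0.05, with the library as replicate 1 or 2.

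The difference between conditions in this polysomal shift was tested as an interaction, the change in polysomal against total mRNA from no RNA to rancRNA_18-M2. No ADE gene and no gene at all passed (0%), with or without the block, and every ADE gene had an adjusted p of 0.9997 (0.9999 with the block) by edgeR. Of all genes 13 had an unadjusted p under 0.05 without the block and 77 with it, with 0 ADE genes among them, and DESeq2 called no ADE gene. The log2 value was -0.25 (SE 0.38) for ADE17 and -0.21 (SE 0.36) for ADE2. ADE5,7 was at -0.16, ADE13 and ADE12 at -0.15, ADE6 at -0.11, ADE16 at -0.05, ADE1 at -0.04, ADE4 at -0.03 and ADE8 at 0.13, so 9 of the 10 ADE genes were below 0. The larger number of ADE genes called with rancRNA_18-M2 than with no RNA was therefore not shown to be a difference between the conditions.

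ADE17 and ADE16 did not keep a fixed ratio. In total mRNA the ratio of ADE17 to ADE16 CPM was 0.889, 0.785 and 0.764 in replicates 1, 2 and 3 with no RNA, 1.54 and 0.905 with rancRNA_18, and 1.19, 0.786 and 0.899 with rancRNA_18-M2. In polysomal mRNA it was 0.852, 0.593 and 0.628 with no RNA, 1.30 in the single rancRNA_18 library, and 0.837, 0.590 and 0.665 with rancRNA_18-M2. ADE17 exceeded ADE16 in 3 libraries only: replicate 1 of rancRNA_18 total mRNA, the single rancRNA_18 polysomal library and replicate 1 of rancRNA_18-M2 total mRNA. Replicate 1 had the highest ratio in each of the 5 groups with more than 1 library, and the ratio was lower in polysomal than in total mRNA in 6 of 6 numbered pairs. These last patterns were noticed after the values were seen and carry no test.

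**Figure D4:**
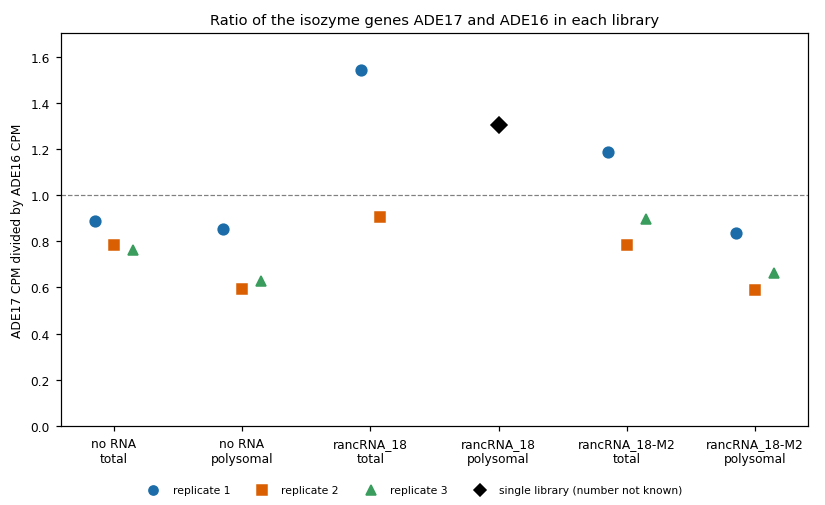
Ratio of ADE17 to ADE16 CPM (y axis, linear, from 0) in each of the 15 libraries, by group (x axis), with the replicate number as the symbol and a dashed line at equal CPM. The ratio is highest in replicate 1 of rancRNA_18 total mRNA (1.54) and in the single rancRNA_18 polysomal library (1.30).

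Across the 15 libraries many pairs of ADE genes varied together, and ADE8 and ADE16 less so. Over the 45 pairs of ADE genes the Pearson correlation of log2 CPM had a median of 0.664 and ran from -0.617 (ADE8 with ADE6) to 0.969 (ADE5,7 with ADE17), with 15 pairs over 0.8. ADE17 also followed ADE13 (0.928), ADE12 (0.919) and ADE2 (0.917). The median correlation of ADE16 with the other ADE genes was 0.389, from -0.560 with ADE8 and -0.263 with ADE1 to 0.814 with ADE6, and for deviations from the group means over 14 libraries the value with ADE6 was 0.965. The median of ADE8 was -0.281, and its highest value was 0.572 with ADE1, or 0.774 for deviations from the group means. The libraries share conditions and replicate numbers, and they include the rancRNA_18 libraries on which ADE17 was picked. No values for pairs of other genes are set beside these. The correlations therefore describe the libraries, carry no p and are not read as particular to the ADE genes.

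Among 4384 genes with a mean of at least 20 CPM, the genes whose pattern over the 15 libraries was most like that of ADE17 were AGP1 (an amino acid permease; r = 0.949), HIS4 (histidine synthesis; 0.912), ARG4 (arginine synthesis; 0.910), MET6 (methionine synthase; 0.904) and PGM1 (phosphoglucomutase; 0.902). Like the mean of the ADE genes were MET6 (0.932), AGP1 (0.931), ARG4 (0.913), ARG1 (arginine synthesis; 0.907) and SER1 (serine synthesis; 0.896). AGP1 ran from 20.6 to 51.6 CPM and MET6 from 124 to 310 CPM over the libraries. These are the highest values of a search over 4384 genes and carry no p. The libraries share replicate numbers and include the rancRNA_18 libraries on which ADE17 was picked. Whether these genes share a regulator with the ADE genes was not tested.

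The surrounding pathways were described by 39 further genes in 6 lists: one-carbon supply (8), PRPP synthesis (5), the guanine branch (5), purine salvage, uptake and interconversion (12), the regulators BAS1 and PHO2 (2) and histidine synthesis (7). None passed between rancRNA_18-M2 and no RNA in either fraction, and none passed without the block. With the block, 6 were higher and 6 lower in polysomes than in total mRNA with no RNA, and 6 were higher and 10 lower with rancRNA_18-M2. Those counts stand beside 21.8% and 31.8% of all genes.

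Of the one-carbon genes, which supply the formyl groups used by ADE8, ADE16 and ADE17, GCV3 of the glycine cleavage system was higher in polysomes by 0.65 with no RNA and 0.77 with rancRNA_18-M2 on the log2 scale. SHM2, serine hydroxymethyltransferase, was lower by values of -0.46 and -0.67, and ADE3, the enzyme that makes the formyl donor, by values of -0.41 and -0.52. In the guanine branch GUK1, guanylate kinase, was higher by 0.75 and 0.78, while IMD4 and IMD3, near copies of IMP dehydrogenase whose reads may be split between them, were at -0.47 and -0.30 with no RNA and -0.56 and -0.54 with rancRNA_18-M2. GUA1, GMP synthase, passed with rancRNA_18-M2 only, at -0.36.

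In salvage, APT1, adenine phosphoribosyltransferase, was higher in polysomes by 0.46 in both conditions. AAH1, adenine deaminase, was lower with no RNA at -0.53, and the purine permease FCY2 with rancRNA_18-M2 at -0.32. Of the histidine genes HIS3, HIS1 and HIS2 were higher, by 0.70, 0.33 and 0.31 with no RNA, and HIS3 and HIS1 by 0.66 and 0.39 with rancRNA_18-M2. HIS7 was lower in both conditions (-0.26 and -0.28), and HIS4 was lower with rancRNA_18-M2 (-0.47). PHO2, a partner of Bas1, was at -0.32 and PRS5, a PRPP synthetase, at -0.31 with rancRNA_18-M2. Scaled by library totals with the block, GCV3, GUK1, APT1 and HIS3 stayed higher and called in both conditions, and HIS1 and HIS2 did not pass. For the genes of these lists no differences beyond the trend with coding length are given. Their values therefore include that trend and are not read as particular to these pathways.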

How the data were processed

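The authors deposited raw read counts per gene for poly(A) libraries, 1 library per file, made with a strand-keeping kit per the labels' protocols. The tools listed, without a role, per the submitters' processing notes were FastQC, HISAT2 and featureCounts. Versions, build, gene models and how strand entered the counting were not given in the sources used here. No spike-in is named, so values are relative abundances.

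From the deposited counts, 6106 genes passed filterByExpr and entered edgeR 4.0.16 under R 4.3.3 (quasi-likelihood F-test, robust, TMM scaling, 1 coefficient per group, all 15 distinct libraries, 9 residual degrees of freedom, 7 with the block), with Benjamini-Hochberg adjustment over all genes and a threshold of 0.05. A group of 1 library borrows the spread of the others. TMM factors ran from 0.749 to 1.19. The labels do not say whether replicates came from separate cultures, so p-values measure the spread between these libraries, which may be technical. DESeq2 1.42.0, other scalings, no filter, the replicate block and leaving out each library were the alternatives. Combining the block with another scaling, and plain library totals, were added after seeing the data.

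To see whether replicate numbers pair the libraries, each library's deviation from its group mean was correlated with the others: r was 0.495 to 0.865 for the 26 same-number pairs and -0.66 to 0.047 for the 52 other pairs, and 14 of 14 libraries matched best a library of their own number. With the group means removed, positive values for same-number pairs push those of the other pairs down. The gap between the ranges and the best matches are therefore partly built in. Each same-number value is over 0.1, so the numbers were taken to pair the libraries, from the data and not from the labels. The number of the single rancRNA_18 polysomal library is not known, and it was run as 1 and as 2.

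Of the 7126 IDs, 6048 matched R64, and the 1078 others held at most 0.109% of a library's reads. Per-length levels use R64 coding lengths, and sequences come from the R64 genome with its own annotation. In simulated data with 198 of 6016 genes changed by 2-fold, the fit recovered 37.4% in total mRNA between rancRNA_18-M2 and no RNA, and 89.9% with the block (13 false calls). For polysomal against total mRNA with no RNA it recovered 37.4%, and 89.4% with the block (12 false calls). The simulated counts kept the fitted differences between replicate numbers and took their spread from the block design, so a gain with the block was built in. All ADE differences tested here were smaller than 2-fold, so these shares do not apply to them.

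The members and lists were chosen with earlier results of these data known. By rule all 10 ADE genes are named in every comparison, and from each other list up to 4 genes called with the smallest p.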

Additional observations from a re-analysis of the deposited data

How the results depend on the processing

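The replicate block moved the counts of called genes for polysomal against total mRNA, with no RNA (1332 genes and 2 ADE genes), with rancRNA_18-M2 (1939 and 6) and with rancRNA_18 (748 and 0 with the single library as replicate 1, 1820 and 1 as replicate 2), and changed no other call at the threshold. The block with library totals gave 2041 genes and 7 ADE genes, 2589 and 9, and 1201 and 5 in those comparisons, and with DESeq2-style size factors 1319 and 2, 1909 and 6, and 770 and 0. DESeq2 called 112, 408 and 32 genes, and library totals without the block 28, 172 and 0. Leaving out 1 library gave 4 to 13 genes with no RNA (750 to 1505 and 0 to 4 ADE genes with the block), 3 to 70 with rancRNA_18-M2 (1332 to 2106 and 4 to 6 ADE genes) and, with the block, 158 to 936 genes as replicate 1 or 937 to 2013 genes and 0 to 2 ADE genes as replicate 2. The block called 2 genes for rancRNA_18-M2 against no RNA in polysomes without no RNA polysomal replicate 2. For rancRNA_18 the median log2 difference of the ADE genes was 0.728 against no RNA in polysomes as replicate 2, and against rancRNA_18-M2 0.253 as replicate 1 (0.244 with size factors) and 0.754 as replicate 2. Leaving out libraries, it ran in total mRNA from 0.057 to 0.572 against no RNA (block 0.24 to 0.425) and from -0.127 to 0.56 against rancRNA_18-M2 (block 0.127 to 0.377), and in polysomes from 0.333 to 0.5 (block 0.25 to 0.364, or 0.697 to 0.762) and from 0.382 to 0.612 (block 0.18 to 0.438, or 0.725 to 0.8). The mean ADE level in rancRNA_18 polysomal mRNA was 234.6 CPM with library totals. The cause of these shifts was not tested. For polysomal against total mRNA with rancRNA_18, ADE17, ADE5,7 and ADE2 were called lower (-0.55, -0.66 and -0.69) by the block with library totals and the library as replicate 1, and stood above 0 (0.22, 0.15 and 0.05, not called) with TMM and the library as replicate 2. Each ADE gene had at least 1409 reads in a library.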

Other observations

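IMD2, an IMP dehydrogenase gene at the entry to the guanine branch, differed by replicate number more than by condition. It stood at 16.9 to 33.5 CPM in the 5 libraries with replicate number 1, at 1.16 to 2.32 CPM in the 5 with number 2 and at 2.72 to 5.12 CPM in the 4 with number 3. The single rancRNA_18 polysomal library was at 22.9 CPM, and no number was given to it from this value. IMD2 has near copies, IMD3 and IMD4, so its reads are uncertain. This pattern was noticed after the values were seen and was not tested.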
